A study of Mus musculus with 31 samples.

Results

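Wfdc17, Ccl3, Sema3d, Cd53, Cd52, Atp8b4, Tespa1, Parp8 and Nucb2 are 9 of the 19938 genes measured. They were chosen by measured values of these same arrays, for levels that were high in the multipotent progenitor MPP4 against long-term stem cells (LT-HSC), MPP2 or MPP3, and most of them stand outside the usual lists of lymphoid genes. Their differences between MPP4 and other populations are therefore given as a description, with no test. The choice had no threshold, and each gene was read by 1 probe of the array. All 9 symbols were found.

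The study profiled 9 populations sorted from the bone marrow of wild-type C57BL/6 mice on 31 whole-transcript arrays. All stem and multipotent populations were lineage negative, cKit+ and Sca1+. LT-HSC (n = 4) were also Flk2-, CD48- and CD150+, short-term stem cells (ST-HSC, n = 3) Flk2-, CD48- and CD150-, MPP2 (n = 3) Flk2-, CD48+ and CD150+, and MPP3 (n = 3) Flk2-, CD48+ and CD150-. MPP4 (n = 5) were sorted as Flk2+ alone, with no gate on CD48 or CD150. Common myeloid progenitors (CMP, n = 3) were lineage negative, cKit+, CD34+ and negative for the Fc gamma receptor, and granulocyte-macrophage progenitors (GMP, n = 4) carried both CD34 and the Fc gamma receptor. Pre-granulocytes (PreGr, n = 3) were Mac1+ with intermediate Gr1, and granulocytes (Gr, n = 3) Mac1+ with high Gr1, with no lineage gate named for these. Each sample was 20000 double-sorted cells, with no treatment. The labels call the replicates biological but name no animal, pool or sex, so p-values measure the spread between these samples. In RNA of sorted bulk cells, fewer cells of a type and less RNA per cell cannot be told apart.

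MPP4 are the multipotent progenitors that carry the cytokine receptor Flk2, encoded by Flt3, and they are known for a bias towards lymphoid output. Lymphoid priming in these cells is usually described through genes such as Dntt, which encodes the terminal transferase of antigen receptor rearrangement. The genes described here have other known roles. Wfdc17, Ccl3 and Sema3d encode secreted proteins, Cd53 and Cd52 leukocyte surface proteins, Atp8b4 a membrane lipid transporter, and Tespa1, Parp8 and Nucb2 proteins of signalling, ADP-ribosylation and calcium binding.

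The arrays fell into 5 sets that the labels do not name. Set 1 holds LT-HSC 1, 2 and 3, and set 2 holds LT-HSC 4, MPP3 3, MPP4 4 and 5 and GMP 4. ST-HSC, MPP2 and MPP3 1 and 2 form set 3, MPP4 1, 2 and 3 with CMP form set 4, and GMP 1, 2 and 3 with PreGr and Gr form set 5. Levels below are log2 values after quantile normalization, which brings the arrays to a common scale, and are compared only within a gene. The set-adjusted fit estimates a difference from arrays of the same set where a set holds both populations. No set holds both MPP4 and MPP2, or both GMP and CMP. In that fit MPP4 against MPP2 is chained across sets through MPP3, and GMP against CMP through MPP4. A second fit leaves the set out. In the set-adjusted fit MPP4 against LT-HSC rests on LT-HSC 4 alone of the LT-HSC arrays. MPP4 against MPP3 rests on MPP3 3 alone of the MPP3 arrays, and MPP3 3 also links MPP4 to MPP2. The p-values of these differences use a spread estimated over all arrays, since 1 array shows none. The words rose and fell are kept for genes that both fits called in the same direction at a limma adjusted p under 0.05. By this rule 6.63% of all genes rose and 8.98% fell from GMP to PreGr, and 8.12% rose and 11.2% fell from PreGr to Gr. Flt3 was at 11.27 ± 0.54 (SD, n = 5) in MPP4 and at 8.21 ± 0.25 (n = 4) in LT-HSC. The mean over 9 macrophage and monocyte markers lay between 6.74 and 6.98 on the MPP4 arrays, within the range of 6.35 to 7.07 on the arrays of LT-HSC, ST-HSC, MPP2 and MPP3. Of 8 granulocyte-monocyte markers 3 (Mpo, Ctsg and Csf1r) were higher in MPP4 than in LT-HSC by both fits, as were 0.873% of all genes. The mean over these 8 was 7.55 to 8.0 on MPP4 arrays, 6.82 to 7.02 on LT-HSC arrays, 7.57 to 7.84 on MPP2 arrays and 8.54 to 9.46 on MPP3 arrays, and its part in the differences between MPP4 and these populations was not tested. The mean over 7 B cell and plasma cell markers was 8.29 to 8.48 on the MPP3 arrays and 6.63 to 6.98 on those of MPP4, and its part in the differences between MPP4 and MPP3 was not tested.

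Only Sema3d, Parp8 and Ccl3 had their highest population mean in MPP4. The other 6 genes were higher in at least 1 other population, so their high level in MPP4 holds against the stem cells and some of the multipotent cells but not across the series. Every MPP4 array lay above every LT-HSC array for 8 of the 9 genes, all but Nucb2, which was so for 6.47% of all genes. Against ST-HSC, which the choice did not name, this held for all 9 genes and for 12.8% of all genes. It held for 8 of 9 against MPP2 (9.33% of all genes; the exception was Tespa1) and for 5 of 9 against MPP3 (3.99%). The share among the 9 genes follows from how they were chosen for LT-HSC, MPP2 and MPP3, and nothing is read from it. The MPP4 arrays that chose the genes also enter the comparisons with ST-HSC and, below, with CMP, GMP, PreGr and Gr. Nothing is read from those shares either. No set holds both MPP4 and ST-HSC, so set and population cannot be told apart there.

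Past the multipotent cells the 9 genes parted. Against CMP every MPP4 array was higher for Wfdc17, Ccl3, Sema3d and Cd53, and against GMP for Wfdc17, Ccl3, Sema3d and Tespa1 (6.92% and 8.36% of all genes). Against PreGr and against Gr the genes with every MPP4 array higher were Tespa1, Sema3d and Parp8 (17.9% and 21.8% of all genes). Atp8b4, Nucb2, Cd53 and Cd52 were lower on every MPP4 array than on any PreGr or Gr array (17.7% and 20.8%). Wfdc17 and Ccl3 overlapped between MPP4 and both granulocyte populations.

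**Figure D1:**
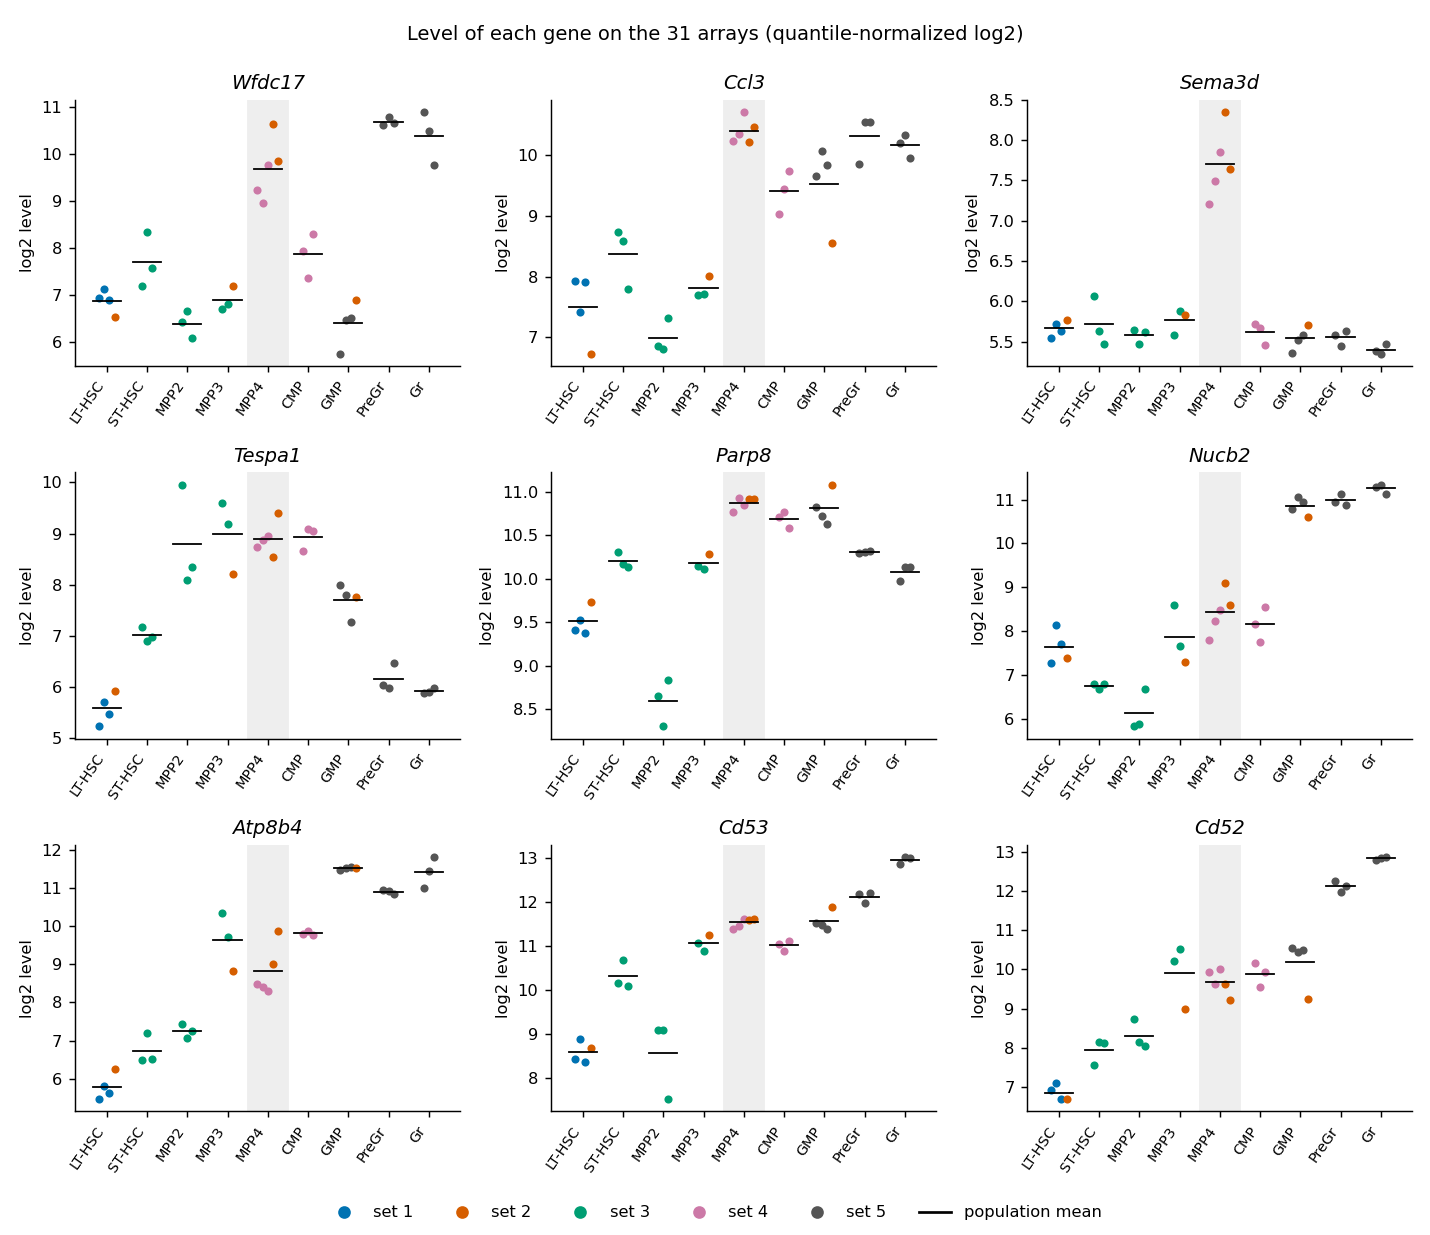
Level of each of the 9 genes (vertical axis, quantile-normalized log2) on each of the 31 arrays, by population (horizontal axis). Points are arrays coloured by array set, black lines are population means, and the grey band marks MPP4; vertical axes differ between genes. Sema3d stands at 7.21 to 8.35 in MPP4 and at 5.35 to 6.06 elsewhere, whereas Atp8b4, Nucb2, Cd53 and Cd52 are highest in GMP or Gr.

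Sema3d encodes a secreted class 3 semaphorin, a guidance protein that signals through neuropilin and plexin receptors. Its level on the MPP4 arrays was 7.21, 7.49, 7.86, 8.35 and 7.64. The other 26 arrays lay between 5.35 and 6.06, and the highest of these was ST-HSC 1. The 8 other populations had means between 5.40 and 5.77, so Sema3d was high in MPP4 alone. Those means lie under 7.37, the median of all gene means, and differences between such dim signals can be compressed. Within set 2 the MPP4 arrays exceeded LT-HSC 4 by 2.23, MPP3 3 by 2.17 and GMP 4 by 2.29, and within set 4 they exceeded CMP by 1.90. The mean over all MPP4 arrays was 4.12-fold that of LT-HSC.

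Along the myeloid path, where its signal was dim, Sema3d passed the test in no comparison. The set-adjusted difference was -0.38 ± 0.30 (SE) between GMP and CMP, 0.07 ± 0.16 between PreGr and GMP and -0.16 ± 0.16 between Gr and PreGr, with limma adjusted p-values of 0.653, 0.848 and 0.557. In the deposited values without the set block the first of these was 0.13. Of 13 measured genes of its family and receptors, limma called 0 by both fits in MPP4 against LT-HSC, where 1.99% of all genes were called. An unadjusted p under 0.05 was found for 4 of the 13 in the set-adjusted fit (16.9% of all genes), and the fit without the set block called 3 (24.7% of all genes). The neuropilin gene Nrp2 was lower in MPP4 than in MPP3 by 0.54 ± 0.13 (limma adjusted p = 0.0427), and rose from CMP to GMP by 0.78 ± 0.16 (adjusted p = 0.00991). The other neuropilin gene, Nrp1, rose from GMP to PreGr by 0.80 ± 0.15 (adjusted p = 0.000366). Sema3a, the measured gene next to Sema3d on chromosome 5, had population means of 5.56 to 5.99 with 5.67 in MPP4. On the other side lies Grm3, with means between 5.55 and 5.74. Over the 9 population means the most similar genes were Fam76b (Pearson r = 0.94), Sv2a (0.85) and Try5 (0.839), among 11477 candidates. Sema3d followed Dntt with r = 0.753 and Flt3 with r = 0.754. Sorting on Flk2 defines MPP4, and the points share arrays and sets.

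The promoter of Sema3d is shown because Sema3d is the gene of the 9 that was high on the MPP4 arrays alone. Promoter windows were taken from RefSeq on build GRCm38.p6, from 250 bases before the start to 30 after it, for the 7 genes of the 9 that the table holds. Each was searched on both strands for GAGGAAGT and AGAGGAA (recognised by PU.1 and other ETS factors), TGTGGT and TGCGGT (RUNX factors), CAGCTG (an E-box) and TGGGAA (the core bound by Ikaros). The ETS motifs can overlap each other. Of 32851 promoter windows of this length, GAGGAAGT was in 2.82%, AGAGGAA in 9.7%, TGTGGT in 15.6%, TGCGGT in 5.87%, CAGCTG in 14.9% and TGGGAA in 23.8%. A match describes the letters and is no evidence of binding. Capitals mark matches in every sequence below. The Sema3d window (chr5:12382916-12383195, plus strand) held none of them and is all in lower case.

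Sema3d promoter: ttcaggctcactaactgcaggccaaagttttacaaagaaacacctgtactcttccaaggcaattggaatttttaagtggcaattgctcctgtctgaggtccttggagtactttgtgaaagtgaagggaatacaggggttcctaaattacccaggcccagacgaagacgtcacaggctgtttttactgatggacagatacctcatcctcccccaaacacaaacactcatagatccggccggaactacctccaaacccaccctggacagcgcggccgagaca

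Wfdc17 encodes a small secreted protein with a whey acidic protein domain, known from activated macrophages and microglia. In MPP4 it was at 9.23, 8.95, 9.76, 10.63 and 9.86. In LT-HSC it was at 6.94, 7.14, 6.90 and 6.55, in MPP2 at 6.43, 6.67 and 6.10, and in MPP3 at 6.71, 6.81 and 7.20. Every MPP4 array was above all of these. ST-HSC, at 7.21, 8.35 and 7.59, and CMP, at 7.94, 7.37 and 8.30, lay between. The GMP arrays, at 5.77, 6.48, 6.52 and 6.90, were as low as those of MPP2.

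PreGr and Gr had the highest mean levels of Wfdc17 in the series. PreGr arrays stood at 10.60, 10.79 and 10.65, and Gr arrays at 10.90, 10.49 and 9.76. Wfdc17 rose from GMP to PreGr by 4.43 ± 0.30 on the log2 scale, or 21.5-fold (limma adjusted p = 1.32e-10), and the arrays of both populations did not overlap. Between Gr and PreGr the difference was -0.30 ± 0.30 (adjusted p = 0.537), and it was 0.01 without Gr 3. Between GMP and CMP the set-adjusted difference was -1.90 ± 0.55 with an adjusted p of 0.0926, against 0.0028 without the set block and 0.0379 in the set-adjusted fit without MPP4 5. With the replicate block beside the set block it was -2.29 (limma adjusted p = 0.0492). Means over all arrays were 6.99-fold higher in MPP4 than in LT-HSC, and the set-adjusted value was 12.9-fold, from MPP4 4 and 5 against LT-HSC 4. Wfdc17 thus stood high at MPP4 and again in PreGr and Gr, with a low level in GMP between them.

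Genes of other mature cells moved with the rise to PreGr. Of the measured macrophage and monocyte markers 4 of 9 rose from GMP to PreGr, as did 4 of 7 B cell and plasma cell markers, 5 of 6 T cell and NK cell markers and 4 of 9 dendritic cell markers, where 6.63% of all genes rose. The mean of the macrophage list was 7.59 to 7.85 on GMP arrays and 8.48 to 8.64 on PreGr arrays, and that of the T and NK cell list 5.95 to 6.17 and 7.14 to 7.17. The B cell list went from 6.83 to 7.06 up to 8.03 to 8.44, and the dendritic cell list from 6.87 to 7.13 up to 8.10 to 8.20. None of these markers was at 0, since array values have no true zero. Their part in the changes of Wfdc17 and Cd52 at this step was not tested.

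Ccl3 encodes the chemokine MIP-1 alpha, which is known as an inhibitor of stem cell cycling. In MPP4 it was at 10.23, 10.35, 10.71, 10.21 and 10.46. In LT-HSC it was at 7.92, 7.41, 7.90 and 6.73, in MPP2 at 6.86, 6.80 and 7.31 and in MPP3 at 7.69, 7.72 and 8.01. MPP4 was above every one of these arrays, with LT-HSC 4 the lowest of all 31. ST-HSC arrays were at 8.74, 8.58 and 7.79, higher in mean than MPP2 and MPP3. Within set 3 both MPP3 arrays were below every ST-HSC array for Ccl3 and Wfdc17, as for 14.4% of all genes. All MPP2 arrays were below every ST-HSC array for Ccl3, Wfdc17, Parp8, Nucb2 and Cd53, and for 9.25% of all genes.

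Unlike Wfdc17, Ccl3 stayed above its LT-HSC and ST-HSC means in both myeloid progenitors. Its means were 9.40 ± 0.36 in CMP, 9.52 ± 0.67 in GMP, 10.32 ± 0.40 in PreGr and 10.16 ± 0.20 in Gr. Within set 4 MPP4 was 1.03 above CMP, and within set 2 it was 1.79 above GMP 4. GMP 4, at 8.54, was more than 1 log2 unit below GMP 1, 2 and 3, at 9.66, 10.06 and 9.83. The set-adjusted difference between GMP and CMP rests on GMP 4 and was -0.76 ± 0.42, while it was 0.12 ± 0.29 without the set block, so its direction was not settled. The differences of 0.47 ± 0.23 between PreGr and GMP and -0.16 ± 0.23 between Gr and PreGr did not pass (limma adjusted p = 0.196 and 0.705). MPP4 exceeded LT-HSC 7.46-fold over all arrays and 12.2-fold within set 2.

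Among 14 other CC chemokines and receptors, Ccl9 was the gene that was higher in MPP4 than in LT-HSC by both fits, by 1.97 ± 0.25 (limma adjusted p = 5.27e-05). Of all genes 0.873% were higher by both fits. From GMP to PreGr 5 of the 14 rose, against 6.63% of all genes, with Ccl6 up by 3.20 ± 0.14 (adjusted p = 6.71e-14) and the Ccl3 receptor gene Ccr1 up by 2.87 ± 0.16 (adjusted p = 1.74e-12). From PreGr to Gr Ccr1 rose again, by 2.44 ± 0.16, and Ccl2, Ccl5, Ccl9 and Ccr3 fell. The list's median change at GMP to PreGr was 0.16 against 0.01 over all genes.

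Ccl3 and Wfdc17 lie on chromosome 11 with Ccl4 as the measured gene between them, by the order of genes in RefSeq on GRCm38.p6. Ccl4, which encodes MIP-1 beta, had population means between 7.63 and 8.54 and stood at 8.27 ± 0.31 in MPP4 and 8.07 ± 0.03 in LT-HSC. Its set-adjusted difference of 0.58 ± 0.16 did not pass (limma adjusted p = 0.0524, and 0.300 without the set block). On the far side of Wfdc17, Wfdc18 was at 7.41 ± 0.29 in MPP4, its highest mean, and at 6.56 ± 0.37 in LT-HSC and 6.00 ± 0.11 in MPP3. Wfdc18 was higher in MPP4 than in LT-HSC by 1.16 ± 0.25 (limma adjusted p = 0.0112) and than in MPP3 by 1.09 ± 0.25 (adjusted p = 0.0302). It also rose from GMP to PreGr, by 0.87 ± 0.17 (adjusted p = 0.000415). Wfdc17 and Wfdc18 encode related proteins, and whether their probes read both transcripts was not tested.

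The genes at both ends of the stretch followed other courses. Wfdc21 had means of 7.49 ± 0.25 in MPP4 and 7.13 ± 0.42 in LT-HSC. GMP stood at 9.81 ± 0.95, PreGr at 12.65 ± 0.16 and Gr at 13.13 ± 0.04. Ccl6 was at 6.65 ± 0.16 in MPP4 and 12.67 ± 0.09 in Gr. Of the genes measured in this stretch, Ccl3, Wfdc17 and Wfdc18 had higher means in MPP4 than in LT-HSC, ST-HSC, MPP2, MPP3, CMP and GMP. Ccl9 was higher in MPP4 than in the stem cells, MPP2 and MPP3 but higher still in CMP, GMP and PreGr.

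**Figure D2:**
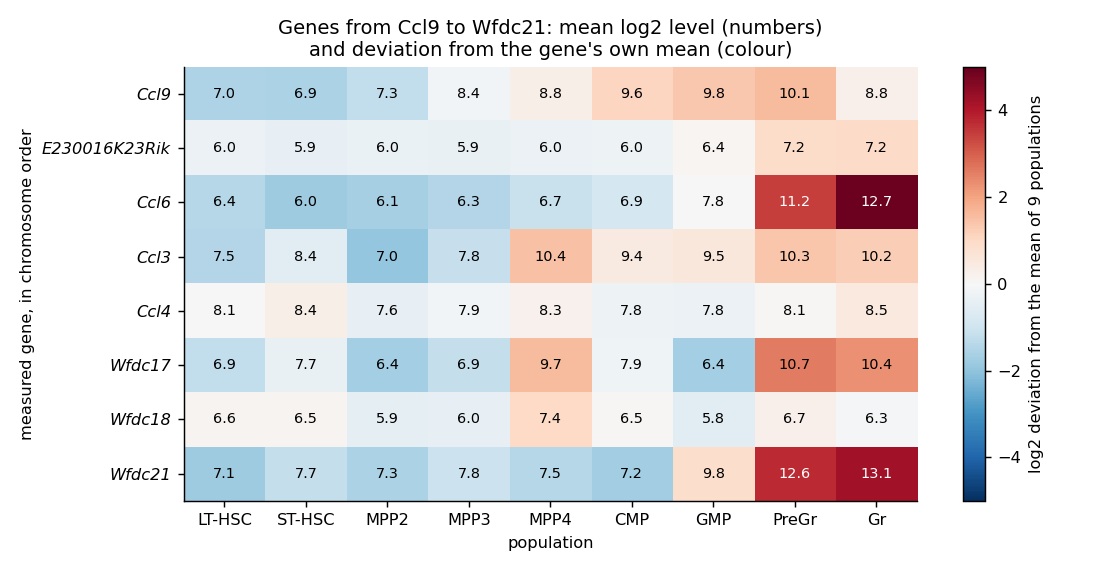
Mean log2 level (numbers) of the measured genes from Ccl9 to Wfdc21 in chromosome order (rows) in the 9 populations (columns), coloured by the deviation from each gene's own mean over the populations. Ccl3, Wfdc17, Wfdc18, Ccl9 and Ccl4 are above their own mean in MPP4, whereas Ccl6 and Wfdc21 are below theirs there. In PreGr all of these are above their own mean, and in Gr all but Wfdc18 are. Ccl4 stays between 7.63 and 8.54.

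The promoters of both genes are shown because they are near neighbours whose population means correlated at r = 0.801 over 9 populations. Each held TGTGGT once, starting 122 bases before the start of Ccl3 (chr11:83649349-83649628, minus strand) and 216 bases before that of Wfdc17 (chr11:83703806-83704085, plus strand).

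Ccl3 promoter: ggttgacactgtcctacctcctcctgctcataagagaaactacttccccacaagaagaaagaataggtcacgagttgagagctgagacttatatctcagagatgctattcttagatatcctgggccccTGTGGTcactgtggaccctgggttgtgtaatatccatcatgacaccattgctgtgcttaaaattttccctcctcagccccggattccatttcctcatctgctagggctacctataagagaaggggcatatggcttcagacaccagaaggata
Wfdc17 promoter: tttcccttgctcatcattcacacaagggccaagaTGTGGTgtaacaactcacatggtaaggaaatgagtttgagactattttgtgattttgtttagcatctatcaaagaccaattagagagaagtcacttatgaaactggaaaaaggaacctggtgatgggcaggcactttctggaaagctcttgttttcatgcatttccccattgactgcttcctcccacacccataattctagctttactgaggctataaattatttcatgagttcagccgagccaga

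The genes most like Wfdc17 over the 9 population means were the receptor gene Tlr7 (r = 0.925), Zswim8 (0.914) and Ikzf1 (0.912), which encodes Ikaros. Those most like Ccl3 were Pou2f2 (0.954), Emb (0.946) and Slc39a11 (0.927). Tlr7 averaged 6.39 in MPP4 and 5.12 in LT-HSC, with its highest mean of 7.51 in Gr. Wfdc17 had r = 0.137 with Dntt and r = -0.019 with Flt3, and Ccl3 had 0.255 and 0.029, so neither followed these genes as Sema3d did.

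Cd53 encodes a tetraspanin, a membrane protein of leukocytes that organises receptors in the plane of the membrane. Its MPP4 arrays were at 11.39, 11.46, 11.62, 11.60 and 11.61, and its LT-HSC arrays at 8.44, 8.89, 8.38 and 8.70. MPP2 was near LT-HSC in mean, at 9.10, 9.09 and 7.53, but MPP2 1 and 2 lay above every LT-HSC array and MPP2 3 below. ST-HSC reached 10.16, 10.70 and 10.09. MPP3, at 11.06, 10.88 and 11.25, lay just under MPP4 without overlap. Within set 4, MPP4 was 0.47 above CMP, also without overlap.

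Cd53 was higher still in the granulocyte populations, at 12.19, 11.99 and 12.20 in PreGr and 12.86, 13.01 and 12.999 in Gr. It rose from PreGr to Gr by 0.83 ± 0.26, or 1.78-fold (limma adjusted p = 0.0177). This call was lost without PreGr 2, Gr 2 or Gr 3, where adjusted p reached 0.067 in the set-adjusted fit and 0.0702 without the set block. It was also lost with arrays centred on their medians (0.63, adjusted p = 0.0518) and with the deposited values without the set block (0.68, adjusted p = 0.156). Between PreGr and GMP the difference of 0.66 ± 0.26 did not pass with all arrays (adjusted p = 0.081), and passed where only arrays of set 5 were fitted (adjusted p = 0.000581) or where MPP2 3, an array of neither population, was left out (adjusted p = 0.000938). Of 14 other tetraspanins, 3 rose and 3 fell from GMP to PreGr, and 4 rose and 2 fell from PreGr to Gr. Of all genes 6.63% rose and 8.98% fell at the first step, and 8.12% rose and 11.2% fell at the second. Cd9 rose at both steps, by 1.67 ± 0.18 (adjusted p = 1.99e-07) and 1.27 ± 0.18 (adjusted p = 7.9e-06). In MPP4 against LT-HSC, Cd37 was higher by 1.33 ± 0.26 (adjusted p = 0.00593) and Cd63 lower by 0.76 ± 0.12 (adjusted p = 0.000566), so members of the family differed in direction.

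Cd52 encodes a short surface glycoprotein held by a lipid anchor, the target of the antibody alemtuzumab. It is itself counted among lymphoid priming genes in some lists, so the description of these genes as outside such lists is loosest for Cd52. In MPP4 it was at 9.93, 9.62, 9.997, 9.63 and 9.22, against 6.93, 7.10, 6.70 and 6.69 in LT-HSC. MPP3 was higher than MPP4 in mean but spread over 10.21, 10.52 and 8.99, with the lowest value on the array of set 2. MPP4 minus MPP3 was -0.23 over all arrays and 0.44 in the set-adjusted fit, and both MPP4 arrays of set 2 lay above MPP3 3, so the direction depended on the set. CMP, at 10.15, 9.56 and 9.92, overlapped MPP4. From LT-HSC the means climbed through ST-HSC (7.95 ± 0.34) and MPP2 (8.30 ± 0.38), whose arrays overlapped.

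Cd52 rose from GMP to PreGr by 1.62 ± 0.18, or 3.07-fold (limma adjusted p = 5.19e-07), from 10.55, 10.45 and 10.49 on the GMP arrays of set 5 to 12.25, 11.98 and 12.12. GMP 4, of set 2, was at 9.25. Between Gr and PreGr the difference was 0.72 ± 0.18 with an adjusted p of 0.00452 in the set-adjusted fit and 0.116 in the fit without the set block, so it was not called. In a list of 12 other lipid-anchored leukocyte surface proteins, 6 rose from GMP to PreGr, where 6.63% of all genes rose, and the median change was 0.36 against 0.01 over all genes. Plaur, the urokinase receptor gene, rose by 2.44 ± 0.20 (adjusted p = 3.76e-09) and Bst1 by 2.01 ± 0.17 (adjusted p = 3.74e-09). In MPP4 against LT-HSC Cd48, a sort marker by which LT-HSC were gated negative, was higher by 2.64 ± 0.59 (adjusted p = 0.0153), and Cd55, a complement regulator, was lower by 2.45 ± 0.34 (adjusted p = 0.00014).

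Atp8b4 encodes a P4-ATPase, one of the flippases that move phospholipids to the inner leaflet of membranes. It was lowest in LT-HSC, at 5.46, 5.80, 5.63 and 6.27, and highest in GMP, at 11.46, 11.52, 11.54 and 11.52. MPP4 had the sixth highest mean, at 8.49, 8.40 and 8.29 on the arrays of set 4 and 9.0 and 9.87 on those of set 2. Within set 4 it was below every CMP array, by 1.41 in mean. MPP3 stood at 10.33 and 9.72 in set 3 and 8.82 in set 2, so its difference from MPP4 depended on the set. MPP4 minus MPP3 was -0.81 ± 0.28 over all arrays and 0.61 ± 0.31 in the set-adjusted fit. Against LT-HSC the gene was 8.12-fold higher in MPP4 over all arrays and 8.99-fold within set 2.

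Between PreGr and GMP Atp8b4 differed by -0.60 ± 0.21, with an adjusted p of 0.0446 in the set-adjusted fit and 0.201 without the set block, and so was not called. Between GMP and CMP the difference was 0.67 ± 0.38 set-adjusted (adjusted p = 0.501) and 1.70 ± 0.30 without the set block (adjusted p = 0.000219). Among 15 other flippase and subunit genes, limma called 0 by both fits in MPP4 against LT-HSC, where 1.99% of all genes were called. In the set-adjusted fit 5 of the 15 had an unadjusted p under 0.05 (16.9% of all genes), and without the set block 6 were called (24.7% of all genes). Atp11a rose from GMP to PreGr by 0.67 ± 0.15 (limma adjusted p = 0.00259) and from PreGr to Gr by 0.79 ± 0.15 (adjusted p = 0.00037), while Atp10a fell by 0.62 ± 0.14 and 0.65 ± 0.14 (adjusted p = 0.00231 and 0.0012). Clec12a, a receptor gene of myeloid cells, was most like Atp8b4 over the 9 population means (r = 0.979), followed by Adprhl2 (0.979) and Vstm4 (0.97). Atp8b4 had r = 0.864 with Mpo, the myeloperoxidase gene of granulocyte and monocyte precursors, and r = -0.955 with Mecom, a stem cell regulator.

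Atp8b4 and Cd53 are shown together because their means correlated with those of Cd52 at r = 0.911 and 0.909 and because the longest motif occurred in both. The Atp8b4 window (chr2:126491524-126491803, minus strand) held GAGGAAGT starting 115 bases before the start, AGAGGAA 162 bases before it, and TGGGAA 223 bases before it with its reverse complement at 242. The Cd53 window (chr3:106790120-106790399, minus strand) held ACTTCCTC, the reverse complement of GAGGAAGT, from base 7 after the start and TGTGGT at 250 bases before it. GAGGAAGT was thus in 2 of the 7 windows. Cd52 had no window in the table.

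Atp8b4 promoter: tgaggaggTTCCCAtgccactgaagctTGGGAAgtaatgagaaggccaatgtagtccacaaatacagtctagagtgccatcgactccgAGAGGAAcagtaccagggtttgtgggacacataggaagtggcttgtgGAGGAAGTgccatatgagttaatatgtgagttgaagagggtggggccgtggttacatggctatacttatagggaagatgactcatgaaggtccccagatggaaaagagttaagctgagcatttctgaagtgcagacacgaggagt
Cd53 promoter: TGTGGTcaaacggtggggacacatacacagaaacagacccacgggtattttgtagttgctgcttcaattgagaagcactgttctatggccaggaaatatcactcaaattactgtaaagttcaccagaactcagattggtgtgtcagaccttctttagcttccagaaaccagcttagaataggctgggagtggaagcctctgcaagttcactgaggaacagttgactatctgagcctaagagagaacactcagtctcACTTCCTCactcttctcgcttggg

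Tespa1 encodes a protein named for thymocytes, where it links antigen receptor signalling to calcium release. It was lowest in LT-HSC, at 5.23, 5.71, 5.47 and 5.92, and at 8.73, 8.87, 8.96, 8.55 and 9.40 in MPP4. MPP2 (9.96, 8.08 and 8.34), MPP3 (9.59, 9.19 and 8.20) and CMP (8.66, 9.09 and 9.06) all overlapped MPP4. The high level therefore covered 4 populations, and the arrays of GMP (7.26 to 7.99) and ST-HSC (6.89 to 7.17) lay below all of these. Means over all arrays were 9.98-fold higher in MPP4 than in LT-HSC. Against MPP2 and MPP3 the difference depended on the set. MPP4 minus MPP2 was 0.11 over all arrays, 1.37 in the set-adjusted fit and -0.66 in the deposited values without the set block. MPP4 minus MPP3 was -0.09, 0.77 and -0.56 in the same order.

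Tespa1 fell from GMP to PreGr by 1.52 ± 0.31 on the log2 scale (limma adjusted p = 0.000919), from 7.99, 7.79 and 7.26 on the GMP arrays of set 5 to 6.04, 5.97 and 6.46. Gr arrays were at 5.89, 5.90 and 5.98, overlapping LT-HSC. The difference of -1.29 ± 0.57 between GMP and CMP did not pass in the set-adjusted fit (adjusted p = 0.351) and passed without the set block (adjusted p = 0.00862). Among 13 measured relatives and signalling partners, 4 rose from GMP to PreGr and 1 fell, against 6.63% and 8.98% of all genes. Lcp2, the adaptor SLP-76, rose by 1.13 ± 0.14 (adjusted p = 1.34e-06), while Plcg1, which encodes phospholipase C gamma 1, fell by 0.53 ± 0.16 (adjusted p = 0.0165). Lat, an adaptor of the T cell receptor, fell from CMP to GMP by 1.16 ± 0.20 (adjusted p = 0.00259). Tespa1 followed Dntt with r = 0.729 and Flt3 with r = 0.617, and the genes nearest to it were Necab3 (0.975), Rpl41 (0.933) and Bok (0.927).

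Parp8 encodes a member of the PARP family that transfers single ADP-ribose units. Its levels were 10.76 to 10.93 on the MPP4 arrays, 9.37 to 9.73 in LT-HSC and 8.30 to 8.84 in MPP2. CMP (10.58 to 10.77) and GMP (10.63 to 11.08) overlapped MPP4. MPP3, at 10.11 to 10.28, and ST-HSC, at 10.14 to 10.30, overlapped each other and lay below MPP4. MPP2 alone was below LT-HSC, and within set 3 it was 1.61 below ST-HSC without overlap, as were 9.25% of all genes. Over all arrays MPP4 was 4.84-fold above MPP2 and 2.57-fold above LT-HSC.

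Parp8 fell from GMP to PreGr by 0.42 ± 0.10 on the log2 scale, or 1.33-fold (limma adjusted p = 0.00399), a call that the deposited values without the set block did not make (-0.36, adjusted p = 0.447). From PreGr to Gr the difference was -0.23 ± 0.10 (adjusted p = 0.106). Of 13 other PARP family genes, Parp1 and Parp2, which encode the DNA damage enzymes of the family, fell from GMP to PreGr by 0.79 ± 0.13 and 0.43 ± 0.13 (adjusted p = 6.34e-05 and 0.0181), and Parp12 rose by 0.64 ± 0.19 (adjusted p = 0.0175). From PreGr to Gr 3 of the 13 rose and 2 fell, against 8.12% and 11.2% of all genes. Emb, the gene next to Parp8 on chromosome 13, encodes a cell adhesion protein and was at 11.45 in MPP4, 10.25 in LT-HSC, 9.63 in MPP2 and 12.10 in Gr. It was higher in MPP4 than in LT-HSC by 1.48 ± 0.26 (limma adjusted p = 0.00202), than in MPP2 by 2.05 ± 0.32 (adjusted p = 0.00113) and than in MPP3 by 1.16 ± 0.26 (adjusted p = 0.0272). Each of these set-adjusted differences of Emb hangs on LT-HSC 4 or MPP3 3, as described above. Isl1, on the other side of Parp8, had means between 6.2 and 6.63. The genes most like Parp8 were Abhd17b (r = 0.971), Cdc73 (0.903) and Cd1d1 (0.884). Its promoter window, of 72.1% G and C, held CAGCTG 128 bases and TGGGAA 212 bases before the start.

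Nucb2 encodes a calcium-binding protein of the secretory pathway, the precursor of the peptide nesfatin-1. MPP4 arrays were at 7.8, 8.23, 8.49, 9.10 and 8.58, and LT-HSC arrays at 7.28, 8.15, 7.70 and 7.38. LT-HSC 2 lay above MPP4 1, so Nucb2 was the gene whose arrays overlapped between these populations, and the mean was 1.76-fold higher in MPP4 over all arrays. Within set 2 the difference was 1.46 and did not overlap. MPP4 minus MPP3 was 0.58 over all arrays, 1.54 in the set-adjusted fit and -0.02 in the deposited values without the set block. MPP3 (8.61, 7.67 and 7.31) and CMP (8.16, 7.76 and 8.55) overlapped MPP4, whereas ST-HSC (6.69 to 6.79) and MPP2 (5.83 to 6.67) were lower.

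The GMP arrays of Nucb2 were at 10.79, 11.06, 10.94 and 10.59. The difference between GMP and CMP was 1.76 ± 0.45 in the set-adjusted fit, with an adjusted p of 0.0549, and 2.69 ± 0.27 without the set block, with an adjusted p of 4.68e-08. It did not meet both fits and is not called here. GMP and CMP arrays did not overlap, but no set holds both, and the share of all genes without overlap was not counted. The set-adjusted value passed when any 1 of 8 arrays was left out (LT-HSC 1 or 2, MPP2 1 or 3, MPP3 1 or 2, MPP4 1 or CMP 3). PreGr (10.88 to 11.14) overlapped GMP, and the Gr arrays were at 11.14 to 11.34. The differences from GMP to PreGr and from PreGr to Gr were 0.05 ± 0.25 and 0.27 ± 0.25 (limma adjusted p = 0.931 and 0.5), and Gr against GMP was not tested. The list of 9 related calcium binders moved otherwise, with 4 falling from GMP to PreGr (8.98% of all genes fell) and 6 from PreGr to Gr (11.2%), and the other members called in neither direction. Calr, which encodes calreticulin, fell by 1.17 ± 0.11 (adjusted p = 4.93e-08) and 0.86 ± 0.11 (adjusted p = 4.13e-06), and Nucb1, the other nucleobindin gene, fell from PreGr to Gr by 0.67 ± 0.11 (adjusted p = 9.28e-05). The list's median change was -0.30 and -0.66 at these steps, against 0.01 and 0.02 over all genes. Slk (r = 0.983), Lta4h (0.983) and Kctd20 (0.982) were most like Nucb2. Its promoter window held none of the motifs.

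The 9 genes were tested along the myeloid path, from CMP to GMP, PreGr and Gr, since the choice of genes did not name these comparisons. From GMP to PreGr 2 of the 9 rose (Wfdc17 and Cd52) and 2 fell (Tespa1 and Parp8) by both fits, where 15.6% of all genes were called, 6.63% higher and 8.98% lower. From PreGr to Gr only Cd53 of the 9 rose and none fell, where 19.3% of all genes were called, 8.12% higher and 11.2% lower, so the count is near the share among all genes. Between GMP and CMP limma called 0 of the 9 by both fits, with 1.04% of all genes called. At that step 3 of the 9 had an unadjusted p under 0.05 in the set-adjusted fit, as had 12.2% of all genes, and the fit without the set block called 4, as it did 11.7% of all genes. The set-adjusted value of GMP against CMP rests on GMP 4 and on the difference between MPP4 arrays of sets 2 and 4, so MPP4 arrays, which chose the genes, enter it. The other steps rest on the arrays of set 5 in that fit. The median change of the 9 genes was -0.21 at GMP against CMP, 0.07 at PreGr against GMP and -0.16 at Gr against PreGr, where the medians over all genes were 0.02, 0.01 and 0.02.

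**Figure D3:**
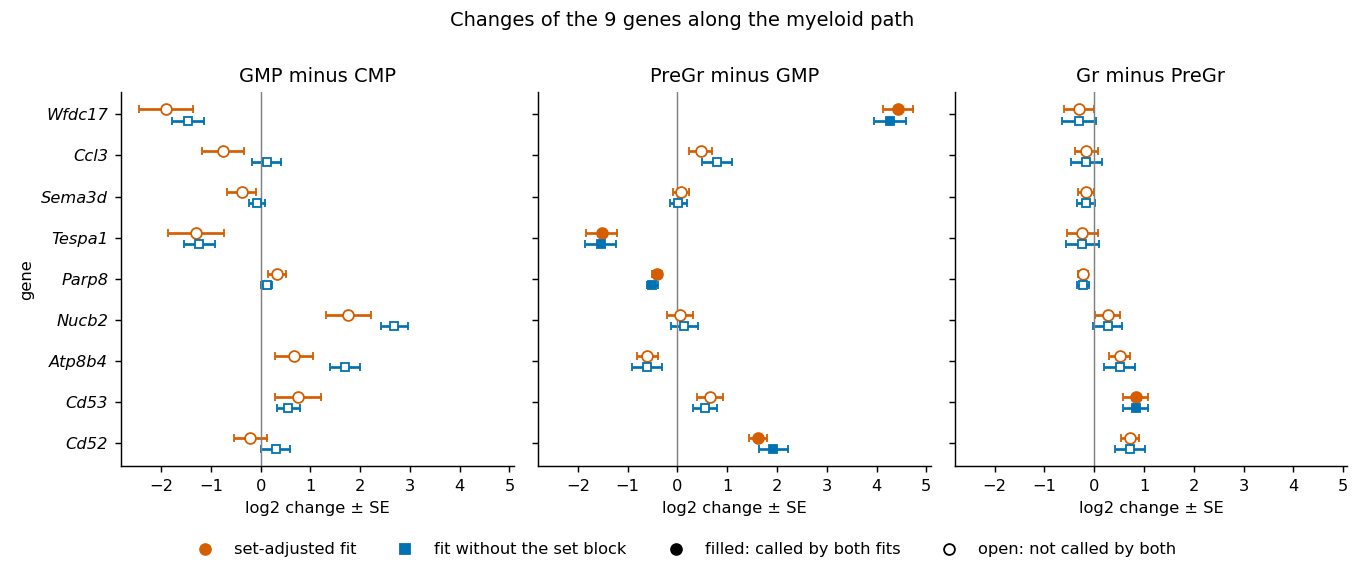
Log2 change (horizontal axis, ± SE) of each of the 9 genes (rows) at the 3 myeloid steps, in the set-adjusted fit (circles) and the fit without the set block (squares). Filled symbols mark changes called by both fits: Wfdc17 and Cd52 up and Tespa1 and Parp8 down at PreGr minus GMP, and Cd53 up at Gr minus PreGr.

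Among themselves the 9 genes did not share 1 pattern. Over the 9 population means the 36 pairs had Pearson r from -0.433 to 0.911, with 8 pairs over 0.8 and 8 under 0. Atp8b4, Cd52, Cd53 and Nucb2 formed a group with every pair over 0.8, with Atp8b4 and Cd52 at 0.911 and Cd53 and Cd52 at 0.909. Ccl3 had r = 0.877 with Cd53, above the pairs of Nucb2 in this group, and 0.801 with Wfdc17. Sema3d and Tespa1 stood apart from the group of Atp8b4, Cd52, Cd53 and Nucb2. Leaving out PreGr and Gr, the range was -0.007 to 0.949 over 7 populations, with 7 pairs over 0.8 and 1 under 0. Wfdc17 and Sema3d then had r = 0.884. Atp8b4, Cd52 and Cd53 stayed over 0.8 with each other, but Nucb2 had r = 0.79, 0.62 and 0.688 with them. Parp8 had r = 0.926 with Cd53, and Tespa1 0.771 with Cd52. The place of Nucb2 in the group thus depended on PreGr and Gr, while Atp8b4, Cd52 and Cd53 kept theirs. The genes were chosen for a high level in 1 of these populations, the points share arrays and sets, and the values are a description.

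Of the lymphoid references, Dntt (11.23 ± 0.45 in MPP4, 9.12 ± 0.69 in MPP3, 9.31 ± 0.24 in CMP and 5.6 to 6.13 in the means of the other populations) had its highest r with Sema3d and Tespa1. Cd52, Atp8b4 and Nucb2 had r = 0.039, 0.087 and -0.189 with Dntt, and -0.911, -0.955 and -0.855 with Mecom. Values with Mecom were also below 0 for Cd53, Ccl3, Wfdc17 and Parp8 (-0.784, -0.666, -0.461 and -0.369). The genes were chosen as high against LT-HSC, where Mecom was higher than in MPP4, so nothing is read from this sign. Cd52 was most like Tyrobp (r = 0.978), which encodes the signalling adaptor DAP12 of myeloid and NK cells, and Cd53 was most like Fbxo27 (r = 0.979).

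**Figure D4:**
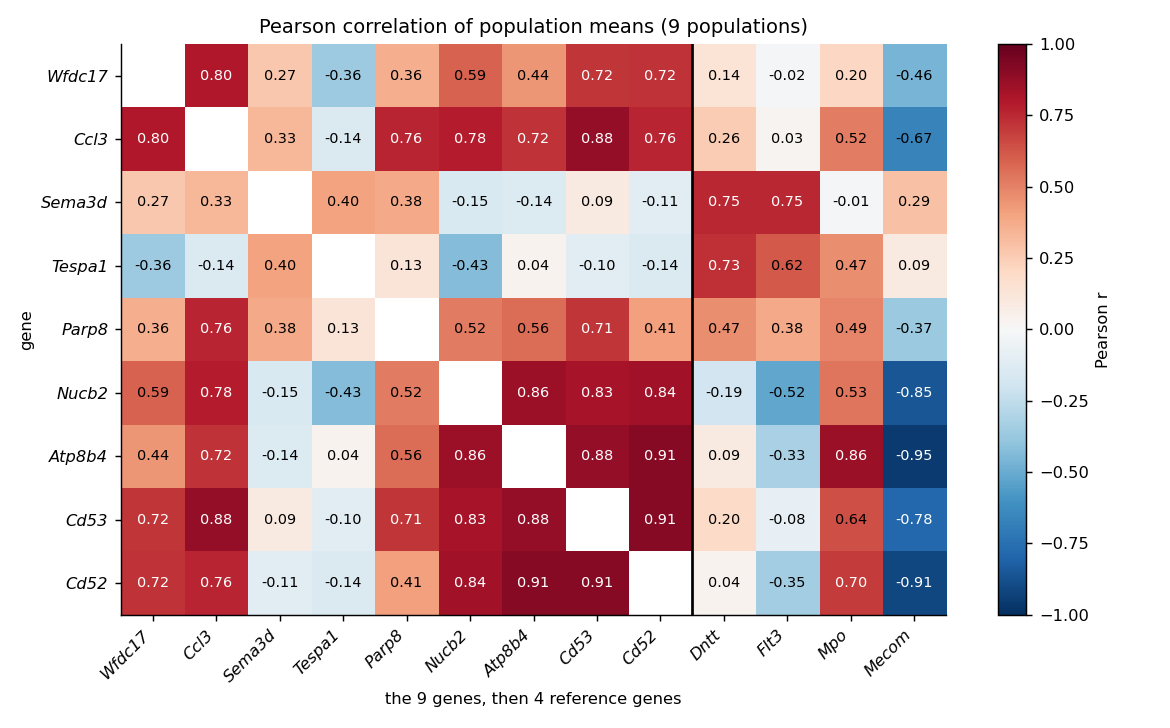
Pearson correlation (colour and number) of the means over 9 populations between the 9 genes (rows) and between each of them and 4 reference genes (last 4 columns); the diagonal is left blank. Atp8b4, Cd52, Cd53 and Nucb2 correlate with each other at over 0.8. Values with Mecom are below 0 for these genes and for Wfdc17, Ccl3 and Parp8. Sema3d and Tespa1 have the highest values with Dntt.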

How the data were processed

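Amplified RNA of 31 sorted samples was measured on Affymetrix mouse gene arrays. The deposited log2 values were made by the authors with RMA, per the submitters' processing notes, and its version is not given in the sources used here. They range from 1.39 to 14.29, and within a population, pairs of arrays had correlations of 0.961 to 0.996 over all genes. The number of arrays limits the precision.

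Of 35557 probes, 21789 are annotated to 1 gene and 1621 to several, while 12147 have no gene. The brightest probe stood for each of 999 genes with more than 1 probe, which left 19938 genes. Each of the 9 genes described has 1 probe. Amplification from 20000 cells and RMA, which pulls low values together, can compress differences between dim signals.

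Arrays were assigned to 5 sets by deposited values that are identical on 2 or more probes between arrays. The medians of the arrays ran from 6.19 to 7.83 and did not enter the assignment. Values were quantile-normalized over all arrays, and limma 3.58.1 in R 4.3.3 fitted 1 mean per population, leaving 18 residual degrees of freedom where set was a block and 22 where it was not. That block takes the shift of a gene by set to be equal across populations. P-values are from limma's moderated two-sided test with Benjamini-Hochberg adjustment over all genes within a comparison, and the fits were tested on simulated data. Plots used matplotlib 3.10.9 under Python 3.11.15.

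The members and gene lists were chosen with earlier results of these data known. Besides the 9 genes, the text names the 3 genes of highest correlation with each, among named genes whose highest population mean is at least 7.37, up to 3 called genes per family list and comparison, up to 2 neighbours a side, and Dntt, Flt3, Mpo and Mecom as references. Family lists and neighbours are given only in part.

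Same-numbered arrays of MPP4 and LT-HSC had residual correlations of 0.126 to 0.271 over 4 pairs in the fit without the set block, and with the set block these were -0.0292 to 0.0603. No label ties a number to an animal. With the replicate number as a block beside the set, 984 genes were called in MPP4 against LT-HSC, against 547.

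Alternatives were the deposited or median-centred values, no set block, a replicate block, all probes, no dim genes, arrays of 1 set, and leaving out each array.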

Additional observations from a re-analysis of the deposited data

Results flagged for a closer look

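Cd52 on the array GMP 4 was at 9.25, while GMP 1, 2 and 3 were at 10.45 to 10.55. The gap was 0.919 of the range of the 4 arrays, above Dixon's limit of 0.829. GMP 4 is the GMP array of set 2 and the others are of set 5. This was 1 of 27 groups of arrays examined for a sample far from the others, and chance gives about 5 percent. The rise of Cd52 from GMP to PreGr was 1.62 in the set-adjusted fit, which compares arrays of set 5, and 1.93 in the fit without the set block, which includes GMP 4 among the GMP arrays.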

How the results depend on the processing

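The numbers of genes called depended on the treatment of the sets, and the cause was not tested. MPP4 against LT-HSC gave 547 in the set-adjusted fit, 4932 without the set block, 11964 with deposited values and no set block, 345 with deposited and 356 with median-centred values and the set block. With the replicate block it gave 984 beside the set block and 5288 without it. MPP4 against MPP2 gave 422, and 2943, 16815, 217 and 244 under the first 4 of these and 4094 with the replicate block alone. MPP4 against MPP3 gave 232, then 10731 (deposited, no set block), 91, 86, 402 with all probes and 1763 with the replicate block alone. GMP against CMP gave 264, then 2323 without the set block, 1534 with deposited values and no set block, and 491 and 2621 with the replicate block with and without the set. Deposited values without the set block gave 1686 for PreGr against GMP (3797) and 2004 for Gr against PreGr (5291). Median centring moved Gr against PreGr from 2501 higher and 2790 lower to 1987 and 3403. The set block shifted the median of all genes in MPP4 against MPP2 to -0.11. The replicate block beside the set could not be fitted for MPP4 against MPP2 or MPP3, and fits without LT-HSC 4 or another single linking array could not give every comparison. Leaving out 1 array gave 292 (without MPP4 4) to 1043 (without MPP4 5), 160 (without MPP3 1; 196 without MPP3 2) to 1171 (without MPP2 3), 173 to 313, 179 (without MPP4 4) to 537 (without MPP4 5), 2936 to 4115 and 3618 to 5564 in the order of comparisons above; leaving out arrays of populations not compared was chosen after seeing the data. The rises of Wfdc17 and Cd52 and the fall of Tespa1 from GMP to PreGr stayed past the threshold under every alternative run, at adjusted p-values up to 4.59e-06, 0.000877 and 0.012, and that of Parp8 failed with deposited values without the set block. On the myeloid path the directions that turned were of changes that both fits had not called. For GMP against CMP, Sema3d (-0.38) was 0.13 with deposited values without the set block, and Cd52 (-0.21) and Ccl3 (-0.76) were 0.30 and 0.12 without the set block, 0.60 and 0.40 with deposited values as well and 0.44 and 0.33 with the replicate block. Nucb2 at PreGr against GMP (0.05) was -0.014 with deposited and -0.055 with median-centred values and the set block, -0.018 without GMP 1 and -0.023 without PreGr 2. Wfdc17 at Gr against PreGr (-0.30) was -0.56 without Gr 1 and 0.01 without Gr 3. Of the differences that were not tested, MPP4 minus MPP3 of Tespa1 (0.77), Atp8b4 (0.61) and Cd52 (0.44) turned to -0.09, -0.81 and -0.23 without the set block and to -0.56, -1.23 and -0.62 with deposited values as well. With the latter, Nucb2 turned from 1.54 to -0.02, and MPP4 minus MPP2 of Tespa1 from 1.37 to -0.66. The replicate block changed no call of the 9 genes that both fits had made. Beside the set block it brought Wfdc17 at GMP against CMP past the threshold (-2.29, adjusted p = 0.0492, against 0.0926), and alone it gave 0.00178.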
